A study of Mus musculus with 31 samples.

Results

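The 6 libraries described here were picked by expression: of 12 RNA-seq libraries of sorted mouse astrocytes, they are the ones in which Lcn2 reached at least 100 CPM (counts scaled to the library total, with no further scaling). Lcn2 encodes lipocalin-2, a secreted iron-siderophore binding protein that astrocytes make strongly when they become reactive. The members are the libraries labelled 1X PBS replicates 2 and 3, 1X cytokine replicate 1, and 2X PBS replicates 1, 2 and 3. Their Lcn2 was 1069, 718 and 803 CPM in the 3 libraries titled 1X and 578, 374 and 424 CPM in the 3 titled 2X. The threshold fell in a wide gap, since the lowest member had 374 CPM and the highest library left out, labelled 2X cytokine replicate 1, had 14.9 CPM. The choice crosses the treatment labels: 5 of the 6 members are labelled PBS and 1 is labelled cytokine, while 5 of the 6 libraries left out are labelled cytokine. What follows compares 2 injections (2X) with 1 injection (1X) inside this Lcn2-high set, and the remaining 6 libraries, called Lcn2-low, serve as a reference. Lcn2 was lower in every 2X member than in any 1X member, which is given without a test because Lcn2 made the selection.

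All 12 libraries came from female C57Bl/6 mice aged 10 weeks, with no transgene or reporter named for them. Mice received IL-1β at 100 ng/mL together with TNF-α at 50 ng/mL, or PBS alone, into both lateral ventricles. A 2X animal was injected and then injected again on day 7, a 1X animal had its single injection on day 7, and sorting followed 18 to 24 h after the last one. A short label on some samples names TNF-α without IL-1β. All 3 Lcn2-high 2X libraries are labelled PBS, and the Lcn2-high 1X libraries are 2 labelled PBS and 1 labelled cytokine, so among members the number of injections and the treatment label are partly tied and cannot be told apart. Genes that IL-1β and TNF-α are known to induce were high in 5 of the 6 libraries labelled PBS, so every library is called by its label and no direction is drawn from the label. Of the 31 samples of the series, those profiled by ATAC-seq were not analysed here.

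Astrocytes respond to IL-1β and TNF-α through receptors that activate NF-κB, a transcription factor that switches on chemokines, acute-phase proteins, its own inhibitors and Lcn2. A reactive astrocyte typically raises the filament protein Gfap and secreted proteins such as Serpina3n and C3, and in strong inflammation it lowers genes for its housekeeping work, which is clearing glutamate and GABA, buffering potassium, moving water and joining its neighbours through gap junctions. Inflamed brain also draws in neutrophils and monocytes, which carry inflammatory transcripts of their own.

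Library totals ran from 1878418 to 5521679 estimated counts, and 3 counts, the limit a count of 0 allows, stand for 0.543 to 1.60 CPM. The 6 astrocyte markers Aldh1l1, Slc1a3, Aqp4, Gja1, Aldoc and Sox9 were present in every member. Their geometric mean was 553, 537 and 744 CPM in the 1X members and 1317, 1315 and 1421 CPM in the 2X members, against 1293 to 1939 CPM in the Lcn2-low libraries. In bulk RNA, fewer cells of a type and less RNA per cell cannot be told apart. The labels do not say whether each library is a separate animal, and the p-values therefore rest on the spread among libraries, part of which may be technical. From here on, CPM are TMM-scaled, 1X values are listed as labelled 1X PBS replicate 2, 1X PBS replicate 3 and 1X cytokine replicate 1, and 2X values as labelled 2X PBS replicates 1, 2 and 3. Fold changes are log2 of 2X over 1X with their standard error.

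The 2 schedules differed widely within the Lcn2-high set. Of 14391 genes tested, edgeR called 2425 (16.9%) at an adjusted p under 0.05, of which 1255 (8.72%) were higher in 2X and 1170 (8.13%) were lower. The median log2 fold change over all genes tested was -0.020. On the first principal component of all 12 libraries, which carried 46.0% of the variance, the 2 members labelled 1X PBS scored 67.5 and 67.0 and the member labelled 1X cytokine scored 39.8. The 2X members scored between 11.0 and 17.8, and all Lcn2-low libraries scored below 0, so the 2X members lay between the 1X members and the Lcn2-low libraries on this axis.

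The number of calls rested on the selection and on single libraries. Comparing libraries by label alone, all 3 labelled 2X PBS against all 3 labelled 1X PBS, called 0 genes with edgeR, and 792 genes had an unadjusted p under 0.05. Limma on log2(TPM + 1) called 413 genes, 85.2% of them higher in 2X, against 51.8% of the calls in the count test. In that test 19 of 26 homeostatic and 5 of 16 cholesterol genes were called higher, against 1.88% of all genes in that test, and 1 of 19 immediate-early, 2 of 21 NF-κB and 1 of 14 complement and acute-phase genes were called lower, against 0.326% of all genes.

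Among the genes of the reactive state, 2X members had more Gfap, Aspg and Timp1 and less Steap4 and S1pr3, and several classic markers did not differ past the threshold with edgeR. Of 12 pan-reactive genes other than Lcn2, 3 rose and 2 fell, where 8.72% of all genes were called higher and 8.13% lower, and their median log2 fold change was -0.26. The 6 astrocyte markers had a median of 1.20 in the same contrast. The part of the astrocyte share of the RNA in the changes of reactive genes was not tested. Gfap, the main intermediate filament of astrocytes (chromosome 11, 102887336 to 102900912, GRCm38), measured 696, 580.3 and 719 CPM in 1X and 1133, 1034 and 1087 CPM in 2X. Every 2X member was above every 1X member, and all 6 were above the Lcn2-low range of 112 to 232 CPM (log2 fold change 0.71 ± 0.11, edgeR adjusted p = 0.00285).

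Aspg, an asparaginase, measured 15.4, 17.7 and 25.9 CPM in 1X and 54.6, 48.4 and 41.7 CPM in 2X (log2 fold change 1.29 ± 0.19, edgeR adjusted p = 0.00229). Timp1, a secreted inhibitor of matrix metalloproteinases, measured 123, 128 and 134 CPM in 1X and 190.4, 179 and 156 CPM in 2X (log2 fold change 0.45 ± 0.10, edgeR adjusted p = 0.0158). The schedules did not overlap in either gene. Steap4, a metalloreductase, measured 140.4, 106 and 88.3 CPM in 1X and 74.8, 70.5 and 61.1 CPM in 2X (log2 fold change -0.70 ± 0.16, edgeR adjusted p = 0.0176). S1pr3, a receptor for sphingosine-1-phosphate, measured 291, 289 and 305 CPM in 1X and 204, 175 and 227 CPM in 2X (log2 fold change -0.55 ± 0.11, edgeR adjusted p = 0.00893). In these 2 genes every 2X member was below every 1X member. Timp1 lost the call without 1X PBS replicate 2 or 2X PBS replicates 1 or 2, and Steap4 without 1X PBS replicate 3 or 2X PBS replicates 2 or 3.

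Serpina3n, a secreted protease inhibitor, measured 647, 472 and 722 CPM in 1X and 970.4, 685 and 671 CPM in 2X, and the schedules overlapped (log2 fold change 0.34 ± 0.18, edgeR adjusted p = 0.247). C3, the central complement protein, measured 989, 629 and 584 CPM in 1X and 625, 334 and 417 CPM in 2X, again with overlap (log2 fold change -0.68 ± 0.25, edgeR adjusted p = 0.0872). Both genes stood far above the Lcn2-low libraries in all 6 members, where Serpina3n ran from 19.6 to 98.0 CPM and C3 from 10.4 to 26.5 CPM. With edgeR, Vim, Cp, Cd44, Osmr, Hspb1 and Cxcl10 did not pass the threshold either. DESeq2 called Vim (log2 fold change -0.36, adjusted p = 0.0245) and Cd44 (-0.68, adjusted p = 0.0336) lower as well, so that 4 of the 12 genes fell in that test. Osmr, the oncostatin M receptor, measured 129.9, 97.8 and 108 CPM in 1X and 109, 92.9 and 121 CPM in 2X (log2 fold change -0.056 ± 0.14, edgeR adjusted p = 0.828). Its values in the 2 schedules were intermixed. The plot of reactive and inflammatory genes shows these levels library by library.

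**Figure D1:**
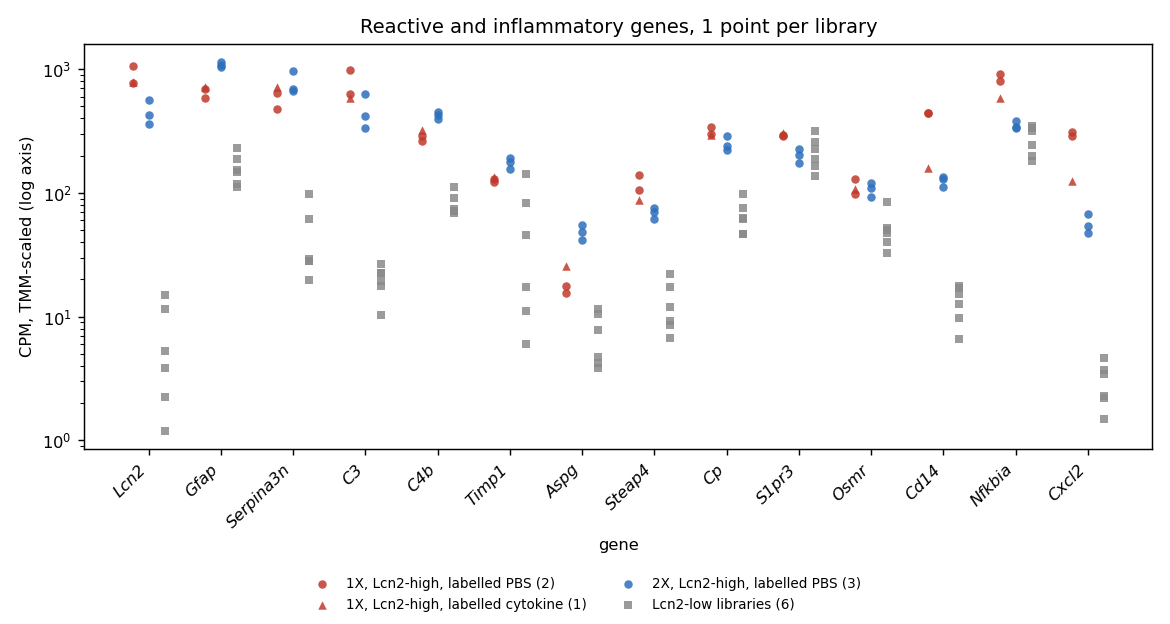
TMM-scaled CPM on a log axis for 14 genes, with 1 point per library: red for the 3 Lcn2-high 1X libraries (the triangle is the one labelled cytokine), blue for the 3 Lcn2-high 2X libraries and grey for the 6 Lcn2-low libraries. Gfap, C4b, Timp1 and Aspg lie higher in blue than in red, Steap4, S1pr3, Cd14, Nfkbia and Cxcl2 lie lower, and the red triangle sits below the red circles in Cd14 and Cxcl2.

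The lists once proposed for inflammatory (A1-type) and ischaemic (A2-type) reactivity gave 0 genes higher and 3 lower of 11 tested in each with edgeR. Over all genes, 8.72% were called higher and 8.13% lower. The A1-type genes that fell were H2-T23 and H2-D1, which present peptides, and Srgn, a proteoglycan core of secretory granules. Srgn measured 255, 275 and 98.1 CPM in 1X and 77.7, 72.1 and 71.4 CPM in 2X (log2 fold change -1.51 ± 0.31, edgeR adjusted p = 0.00968). The A2-type genes that fell were Ptgs2, the inducible prostaglandin synthase (-1.17, edgeR adjusted p = 0.0246), Slc10a6, a steroid sulfate transporter (-1.29, edgeR adjusted p = 0.02), and Cd14, the co-receptor for endotoxin. Cd14 measured 445, 439 and 159 CPM in 1X and 133, 112 and 129 CPM in 2X (log2 fold change -1.48 ± 0.32, edgeR adjusted p = 0.0115). In Srgn, Ptgs2 and Cd14 the member labelled 1X cytokine lay nearer to the 2X members than to the other 1X members. Srgn and Cd14 lost the call without 2X PBS replicates 2 or 3, Ptgs2 without any 1 of the 5 members labelled PBS, and Slc10a6 without 1X PBS replicates 2 or 3 or 2X PBS replicates 1 or 2. Without 2X PBS replicate 2, edgeR called 0 genes of either list lower, and without 2X PBS replicate 3 it called 0 A1-type genes, although 6 A1-type genes in each fit and 3 A2-type genes in the first had an unadjusted p under 0.05. It called 1 gene of each list lower without 1X PBS replicate 2 or 3. Without 2X PBS replicate 1 it called 3 A1-type genes and 1 A2-type gene lower, and without 2X PBS replicate 3 it called 2 A2-type genes. Without 1X cytokine replicate 1 it called 4 A1-type and 5 A2-type genes lower, against 11.5% of all genes. In that fit 1 A1-type gene was called higher, against 12.1%. The other fits called 2.75% to 5.13% of all genes lower. On all members DESeq2 called 2 A1-type and 3 A2-type genes lower, against 6.66% of all genes.

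Complement and acute-phase genes split, with 2 of 14 tested higher in 2X and 7 lower (against 8.72% and 8.13% of all genes). The list's median was -0.61. C4b, a component of the classical complement pathway, measured 286, 262 and 323 CPM in 1X and 426, 452 and 398 CPM in 2X (log2 fold change 0.55 ± 0.11, edgeR adjusted p = 0.00787), and reads from its close copy C4a cannot always be told from it. The schedules did not overlap in this gene, which was higher in every 2X member.

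Lbp, which hands endotoxin to Cd14, measured 362, 335 and 358 CPM in 1X and 246, 174 and 213 CPM in 2X (log2 fold change -0.74 ± 0.13, edgeR adjusted p = 0.00407). Hp, the haemoglobin scavenger haptoglobin, measured 132, 115 and 50.3 CPM in 1X and 28.6, 29.0 and 31.7 CPM in 2X (log2 fold change -1.73 ± 0.30, edgeR adjusted p = 0.00425). C1s1, a protease of the first complement complex, measured 148, 134 and 126 CPM in 1X and 90.8, 64.2 and 92.9 CPM in 2X (log2 fold change -0.73 ± 0.14, edgeR adjusted p = 0.00787). All 3 were lower in every 2X member than in any 1X member. Saa3, an acute-phase serum amyloid, fell by less (log2 fold change -0.53 ± 0.15, edgeR adjusted p = 0.037), or by 0.35 without the library labelled 1X PBS replicate 2, and its reads may be shared with other Saa copies. Saa3 lost the call without any 1 of the 5 members labelled PBS. With 1 member left out, 3 to 9 genes of this list were called lower, 3 of them without 1X PBS replicate 2, 2X PBS replicate 2 or 2X PBS replicate 3, and 4 without 1X PBS replicate 3. The fits with 1 member left out called 2.75% to 11.5% of all genes lower. All 14 tested genes of this list lay above the Lcn2-low range in all 6 members, where 5.24% of all genes did. Saa1, Saa3 and Orm2 are among the 14 and were too low in the Lcn2-low libraries to be tested there, so that they entered the list through the members alone. This count sets the Lcn2-high libraries against the others, as the selection did, and is given without a test.

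Of NF-κB targets and regulators, 7 of 21 tested were lower in 2X members and 1 was higher (against 8.13% and 8.72% of all genes). Their median log2 fold change was -0.71. The inhibitors that NF-κB induces to shut itself off were among the genes that fell. Nfkbia, which encodes IκBα (chromosome 12, 55489410 to 55492647, GRCm38), measured 916, 797 and 583 CPM in 1X and 341, 337 and 379 CPM in 2X (log2 fold change -1.12 ± 0.16, edgeR adjusted p = 0.00174). Nfkbiz, a nuclear IκB protein, measured 440.4, 474 and 335 CPM in 1X and 174, 170.0 and 177 CPM in 2X (log2 fold change -1.26 ± 0.13, edgeR adjusted p = 0.000557). Tnfaip3, the ubiquitin-editing protein A20, measured 284, 244 and 64.9 CPM in 1X and 52.5, 56.6 and 61.1 CPM in 2X (log2 fold change -1.79 ± 0.42, edgeR adjusted p = 0.0174). None of the 3 genes overlapped between schedules, although for Tnfaip3 the member labelled 1X cytokine lay just above the 2X members and far below the other 1X members. Tnfaip3 lost the call without any 1 of the 5 members labelled PBS.

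Nfkb2, an NF-κB subunit, fell by 0.71 ± 0.14 on the log2 scale (edgeR adjusted p = 0.00932). Tnfaip2, a TNF-induced gene, had 33.0, 38.4 and 24.2 CPM in 1X and 15.1, 13.6 and 9.70 CPM in 2X (log2 fold change -1.32 ± 0.22, edgeR adjusted p = 0.00345). Vcam1, an adhesion protein, had 162, 149.6 and 217 CPM in 1X and 254, 223 and 265 CPM in 2X (log2 fold change 0.49 ± 0.14, edgeR adjusted p = 0.0429). It was the 1 gene of the list that rose. Nfkb2 lost the call without 2X PBS replicate 2, and Vcam1 without any 1 of the 5 members labelled PBS. Without the member labelled 1X cytokine 13 genes of this list were called lower, and without 2X PBS replicate 2 there were 3. In those fits 11.5% and 2.75% of all genes were called lower.

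Among chemokines and cytokines, 6 of 22 tested fell and 1 rose (against 8.13% and 8.72% of all genes), with a median of -0.58. Cxcl2, a neutrophil attractant, measured 289, 309 and 125 CPM in 1X and 67.2, 47.3 and 54.1 CPM in 2X (log2 fold change -2.12 ± 0.30, edgeR adjusted p = 0.00182). Il1b, which encodes IL-1β and is made chiefly by myeloid cells, measured 723, 702 and 263 CPM in 1X and 194, 139.8 and 141 CPM in 2X (log2 fold change -1.83 ± 0.32, edgeR adjusted p = 0.00464). In both genes all 2X members were below all 1X members, and the member labelled 1X cytokine was the lowest of the 1X members. Ccl20 and Ccl5, which attract lymphocytes, fell by 2.18 ± 0.43 and 1.22 ± 0.25 on the log2 scale (edgeR adjusted p = 0.00766 and 0.00872), from low levels of at most 19.2 CPM. Ccl2, the monocyte attractant, measured 26.9, 27.6 and 20.7 CPM in 1X and 37.4, 28.6 and 30.0 CPM in 2X and did not pass the threshold (log2 fold change 0.34 ± 0.16, edgeR adjusted p = 0.201). The 1 gene that rose was Csf1, a growth factor for microglia (log2 fold change 0.52 ± 0.14, edgeR adjusted p = 0.0296). Ccl20 lost the call without 2X PBS replicate 2, and Csf1 without 1X PBS replicates 2 or 3 or 2X PBS replicates 1 or 2.

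The start regions of Cxcl2 and Nfkbia are shown because these genes fell together and are textbook NF-κB targets. Both lines give the 250 bases upstream of the start in RefSeq (GRCm38.p6), 5′ to 3′ on the gene's strand, at chr5:90903649-90903898 (plus strand) and chr12:55492648-55492897 (minus strand). Capitals mark matches, on either strand, to a κB-type motif that reads GGG, any 2 bases, TT, any base and CC.
Cxcl2: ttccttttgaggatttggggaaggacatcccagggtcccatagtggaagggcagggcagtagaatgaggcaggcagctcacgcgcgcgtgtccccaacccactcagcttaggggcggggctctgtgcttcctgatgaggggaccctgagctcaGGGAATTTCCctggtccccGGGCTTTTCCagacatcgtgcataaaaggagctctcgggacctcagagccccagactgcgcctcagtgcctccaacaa
Nfkbia: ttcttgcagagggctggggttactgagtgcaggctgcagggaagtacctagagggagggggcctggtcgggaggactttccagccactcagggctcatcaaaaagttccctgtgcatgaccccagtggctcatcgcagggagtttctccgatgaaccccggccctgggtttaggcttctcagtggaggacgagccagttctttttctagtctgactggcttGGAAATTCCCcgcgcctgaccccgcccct
The Cxcl2 window held 2 matches, GGGAATTTCC and GGGCTTTTCC, beginning 97 and 78 bases before the start. The Nfkbia window held 1 match, on the opposite strand, beginning 29 bases before the start. Of all 32851 upstream windows, 4.11% held at least 1 match, and of the 21 windows of NF-κB list genes 7 did. Counted by gene, 17 of the 22 genes of that list had a window and 6 had a match. A match is a description of letters, and binding at these windows was not measured here.

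Of the IL-1 and TNF receptors and adaptors, 6 of 20 fell and 1 rose (against 8.13% and 8.72% of all genes). Il1r2, the decoy receptor, measured 259.6, 284 and 136 CPM in 1X and 92.9, 69.5 and 57.9 CPM in 2X (log2 fold change -1.64 ± 0.26, edgeR adjusted p = 0.00289). Il1rn, the soluble receptor antagonist, measured 107, 113 and 33.9 CPM in 1X and 26.1, 15.5 and 14.1 CPM in 2X (log2 fold change -2.24 ± 0.42, edgeR adjusted p = 0.00623). The signalling receptor Il1r1 and its partner Il1rap fell less steeply (-0.68 and -0.87, edgeR adjusted p = 0.0159 and 0.00277). The 2 TNF receptors parted: Tnfrsf1b, common on immune cells, measured 87.9, 84.7 and 37.1 CPM in 1X and 26.1, 28.5 and 25.3 CPM in 2X (log2 fold change -1.38 ± 0.28, edgeR adjusted p = 0.00943). Tnfrsf1a, the broadly expressed one, measured 117, 122 and 108 CPM in 1X and 175, 137 and 147 CPM in 2X and rose (log2 fold change 0.40 ± 0.11, edgeR adjusted p = 0.0389). Il1rn lost the call without 2X PBS replicate 2, Il1r1 without 1X PBS replicates 2 or 3 or 2X PBS replicate 3, Tnfrsf1b without 2X PBS replicates 2 or 3, and Tnfrsf1a without any 1 of the 5 members labelled PBS.

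Transcripts of myeloid cells moved with these inflammatory genes. Of the neutrophil markers, 8 of 10 tested fell and 0 rose, and of the monocyte and macrophage markers 3 of 10 fell and 0 rose. The share of all genes called lower was 8.13%. The summed neutrophil markers ran from 677 to 1609 CPM in 1X, from 350 to 466 CPM in 2X, and from 45.7 to 219 CPM in the Lcn2-low libraries. The summed monocyte and macrophage markers ran from 645 to 1989 CPM in 1X, 556 to 566 CPM in 2X, and 105 to 201 CPM in the Lcn2-low libraries, and no marker of either list was at 0 in all 6 members. The neutrophil sums of the schedules did not overlap, and in the monocyte sums the member labelled 1X cytokine stood close to 2X. S100a8, a neutrophil alarmin, measured 291, 389 and 128 CPM in 1X and 84.5, 86.4 and 84.7 CPM in 2X (log2 fold change -1.66 ± 0.31, edgeR adjusted p = 0.00672). Lyz2, the lysozyme of myeloid cells, measured 1230.5, 1111 and 280.3 CPM in 1X and 295, 309 and 306 CPM in 2X (log2 fold change -1.52 ± 0.41, edgeR adjusted p = 0.0311). For Lyz2 the member labelled 1X cytokine lay below all 2X members, as the geometric mean of the monocyte list did, at 12.1 CPM against 15.9 to 17.9 CPM. Lyz2 lost the call without any 1 of the 5 members labelled PBS. The part of these cells in the falls of Il1b, Cxcl2, Cd14, Il1r2, Il1rn, Tnfrsf1b and Srgn was not tested.

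Genes of a cell's immediate-early response were lower in 2X members almost throughout: 17 of 19 tested fell (against 8.13% of all genes) and 0 rose. The list's median was -0.71. Dusp1, a phosphatase that dampens MAP kinases, measured 1646, 1739.5 and 1169.9 CPM in 1X and 884, 815 and 721 CPM in 2X (log2 fold change -0.91 ± 0.16, edgeR adjusted p = 0.00401). Nr4a1, an orphan nuclear receptor, measured 1906, 2009 and 1642 CPM in 1X and 972, 965 and 1119 CPM in 2X (log2 fold change -0.86 ± 0.12, edgeR adjusted p = 0.00174). Egr1, a zinc-finger transcription factor, measured 1251, 1359 and 1065 CPM in 1X and 688, 721 and 778 CPM in 2X (log2 fold change -0.75 ± 0.12, edgeR adjusted p = 0.0028). In each the schedules did not overlap and the member labelled 1X cytokine was the lowest of the 1X members. Klf4, Junb and Atf3, also transcription factors, fell by 0.96, 0.70 and 0.66 on the log2 scale (edgeR adjusted p = 0.00353, 0.00457 and 0.00648). Against the Lcn2-low libraries, 12 of the 19 genes had all 1X members above the range and 0 had all 2X members above it, where 14.4% and 6.83% of all genes did. The median in the TPM test, where 1 gene was called (against 0.326% of all genes), was -0.52. Without 2X PBS replicate 2 edgeR called 11, against 2.75% of all genes.

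Of 13 glucocorticoid-responsive genes tested, 7 fell (against 8.13% of all genes) and 0 rose, with a median of -0.76. From these 7, Nfkbia and Dusp1 were described above. Sgk1, a kinase induced by steroids and by salt stress, measured 355, 331 and 370.1 CPM in 1X and 174, 155 and 143 CPM in 2X (log2 fold change -1.16 ± 0.11, edgeR adjusted p = 0.000453). Per1, a clock gene, measured 289, 278 and 228 CPM in 1X and 134, 169.7 and 163 CPM in 2X (log2 fold change -0.76 ± 0.13, edgeR adjusted p = 0.00352). The 2 schedules stood apart in both. Fkbp5, the usual reporter of glucocorticoid action, measured 13.7, 16.8 and 17.6 CPM in 1X and 11.3, 12.4 and 7.94 CPM in 2X and did not pass the threshold (log2 fold change -0.59 ± 0.22, edgeR adjusted p = 0.0929).

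The genes of astrocyte housekeeping went the other way, and had the largest median shift of the 23 function lists. Of 26 tested, 25 rose in 2X and 0 fell, with a median log2 fold change of 1.25, against 8.72% of all genes called higher. All 26 had every 2X member above every 1X member, where 17.2% of all genes did, and 35.1% of all genes were free of overlap in either direction. The exception to the calls was Clu, clusterin (log2 fold change 0.46 ± 0.15, edgeR adjusted p = 0.0612). The 6 astrocyte markers are all in this list and all rose, and their sum ran from 5000 to 7538 CPM in 1X and from 12950 to 14981 CPM in 2X. A larger astrocyte share of the RNA and more transcript per astrocyte cannot be told apart here.

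Among transporters, Slc6a11, the astrocyte GABA transporter (chromosome 6, 114131241 to 114249952, GRCm38), measured 95.9, 113 and 128 CPM in 1X and 474, 433 and 424 CPM in 2X (log2 fold change 1.98 ± 0.12, edgeR adjusted p = 8.03e-05). Slc7a10, which carries small neutral amino acids including D-serine, measured 188, 207 and 160.1 CPM in 1X and 588, 569 and 529.7 CPM in 2X (log2 fold change 1.60 ± 0.12, edgeR adjusted p = 0.000166). Slc1a2, the main glutamate transporter, measured 541, 542 and 962 CPM in 1X and 1753, 1807 and 2000.2 CPM in 2X (log2 fold change 1.45 ± 0.21, edgeR adjusted p = 0.00192). For Slc6a11 and Slc7a10 the 1X members were tightly grouped whatever their label, while for Slc1a2 the member labelled 1X cytokine stood between the other 1X members and the 2X members. Glul, glutamine synthetase, rose less (log2 fold change 0.52 ± 0.16, edgeR adjusted p = 0.047). Glul lost the call without any 1 of the 5 members labelled PBS.

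Aqp4, the water channel of the endfeet, measured 264, 277 and 325 CPM in 1X and 691, 703 and 653 CPM in 2X (log2 fold change 1.24 ± 0.11, edgeR adjusted p = 0.000442). Gja1, the gap-junction protein connexin 43, measured 777, 935 and 1126 CPM in 1X and 1975, 1873 and 1990.5 CPM in 2X (log2 fold change 1.04 ± 0.14, edgeR adjusted p = 0.00152), and its partner Gjb6, connexin 30, rose by 1.27 on the log2 scale (edgeR adjusted p = 0.00192). Both endfoot and junction genes were higher in every 2X member. Fgfr3, a growth factor receptor of mature astrocytes, measured 292, 280.3 and 364 CPM in 1X and 1015, 905 and 964 CPM in 2X (log2 fold change 1.62 ± 0.12, edgeR adjusted p = 0.000173). Aldoc, an astrocyte form of aldolase, and Sox9, the transcription factor of astrocyte identity, rose by 1.32 and 0.81 on the log2 scale (edgeR adjusted p = 0.00176 and 0.00132).

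Set against the 6 Lcn2-low libraries, 25 of the 26 genes had all 1X members below the range, where 14.5% of all genes did. For the 2X members this held for 12 of 26, where 4.02% of all genes did, and for 10 of 26 the mean of the 2X members lay within the range, where 75.3% of all genes had it there. Slc1a2 and Aqp4 are among these 10, with Lcn2-low ranges of 1653 to 2161 CPM and 452 to 784 CPM. The geometric mean of the list was 453, 456 and 620 CPM in 1X and 1102, 1119 and 1184 CPM in 2X. In the Lcn2-low libraries it was 1236 to 1519 CPM, above every 2X member. No comparison with the Lcn2-low set was tested, since the selection made it. The plot of the 26 homeostatic genes shows the red 1X points to the left of the blue 2X points in every gene.

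**Figure D2:**
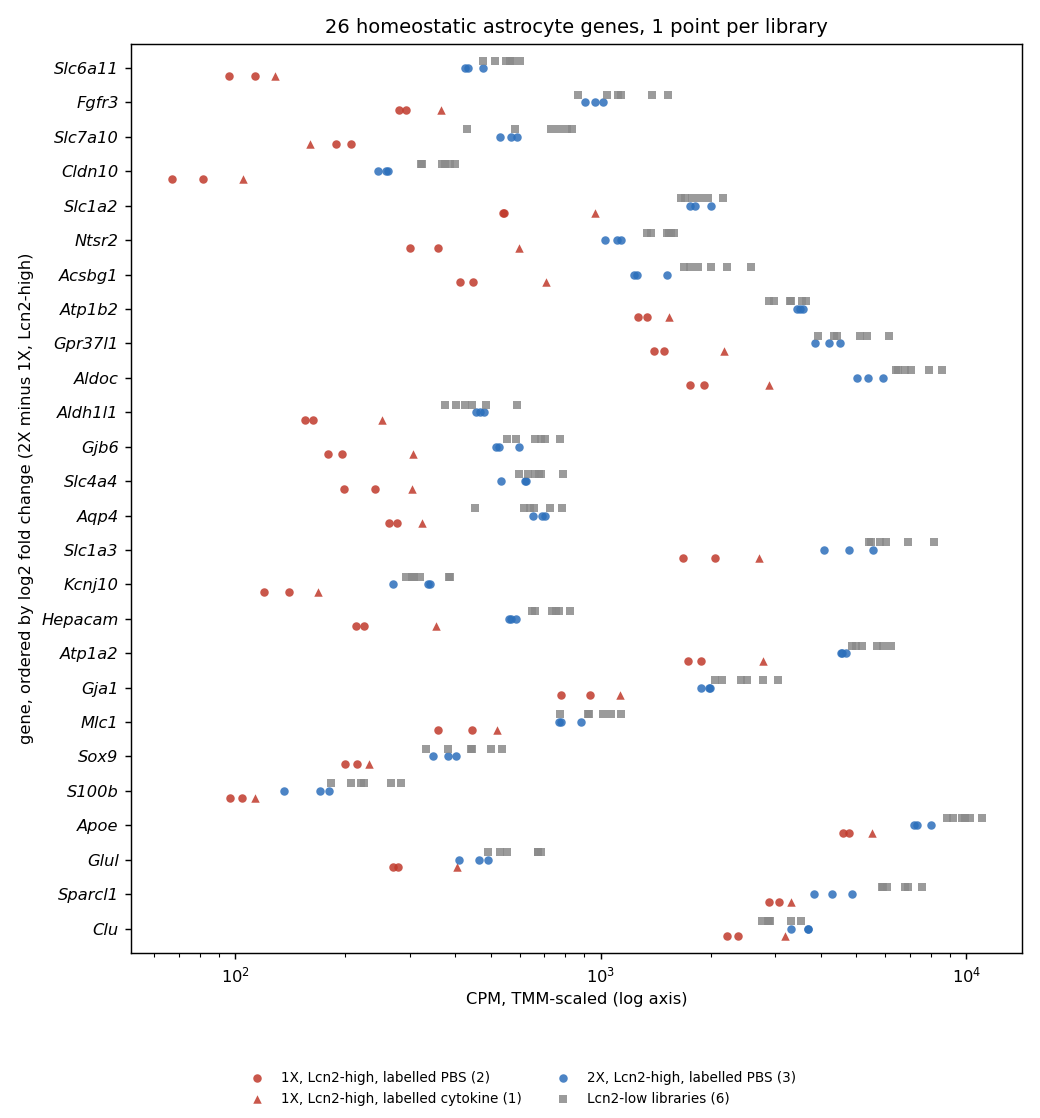
TMM-scaled CPM on a log axis for the 26 homeostatic astrocyte genes, ordered by log2 fold change, with 1 point per library: red for Lcn2-high 1X (the triangle is the one labelled cytokine), blue for Lcn2-high 2X, grey for Lcn2-low. In every gene the 3 blue points lie to the right of the 3 red points, and 25 of the 26 genes have all red points to the left of the grey ones.

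Several of the largest rises outside the lists were in genes that the Lcn2-low libraries also held at high levels. Agt, angiotensinogen, which astrocytes secrete, measured 124, 153 and 164 CPM in 1X and 691, 624 and 624 CPM in 2X (log2 fold change 2.14 ± 0.12, edgeR adjusted p = 6.48e-05). Wnt7b, a secreted Wnt ligand, measured 40.4, 33.4 and 37.1 CPM in 1X and 151, 137 and 151 CPM in 2X (log2 fold change 1.99 ± 0.11, edgeR adjusted p = 6.48e-05). Hes5, a target of Notch signalling, measured 11.3, 17.9 and 26.8 CPM in 1X and 59.3, 73.5 and 87.9 CPM in 2X (log2 fold change 1.97 ± 0.26, edgeR adjusted p = 0.0014). The 1X members were all below the Lcn2-low range in these 3 genes, which was 673 to 1081 CPM for Agt, 97.9 to 184 CPM for Wnt7b and 66.7 to 129 CPM for Hes5. Kcnd2, a potassium channel subunit, rose by 2.32 on the log2 scale and Cers1, a ceramide synthase, by 1.97 (edgeR adjusted p = 0.000607 and 0.000166). Dpep1, a membrane dipeptidase, and Adh1, an alcohol dehydrogenase, rose by 2.30 and 1.96 on the log2 scale (edgeR adjusted p = 0.00148 and 0.00252), from lower levels of at most 23.5 CPM.

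Cholesterol synthesis, which astrocytes carry out to supply neurons, was higher in 2X in 8 of 16 genes, against 8.72% of all genes, and lower in 0, with a median of 0.34. Msmo1, a sterol oxidase, measured 179.9, 191 and 225 CPM in 1X and 527, 421 and 391 CPM in 2X (log2 fold change 1.17 ± 0.14, edgeR adjusted p = 0.000872). Dhcr7, a late reductase, rose by 1.13 on the log2 scale (edgeR adjusted p = 0.000956). All 16 means were higher in 2X, and in 13 of 16 genes every 2X member was above every 1X member, where 17.2% of all genes did so. Leaving out 1X PBS replicate 2, 2X PBS replicate 1 or 2X PBS replicate 2 lowered the 8 calls to 5. In those fits 5.4%, 6.13% and 4.71% of all genes were called higher. Acss2, which makes acetyl-CoA from acetate, was the 1 gene of 12 in the acetyl-CoA and histone acetylation list that was called, measuring 76.1, 73.2 and 99.3 CPM in 1X and 129, 137 and 127 CPM in 2X (log2 fold change 0.66 ± 0.13, edgeR adjusted p = 0.0068). The writers and erasers of histone acetylation in that list, such as Ep300 (log2 fold change -0.20 ± 0.14, edgeR adjusted p = 0.356) and Hdac1 (log2 fold change 0.047 ± 0.095, edgeR adjusted p = 0.785), did not pass the threshold.

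**Figure D3:**
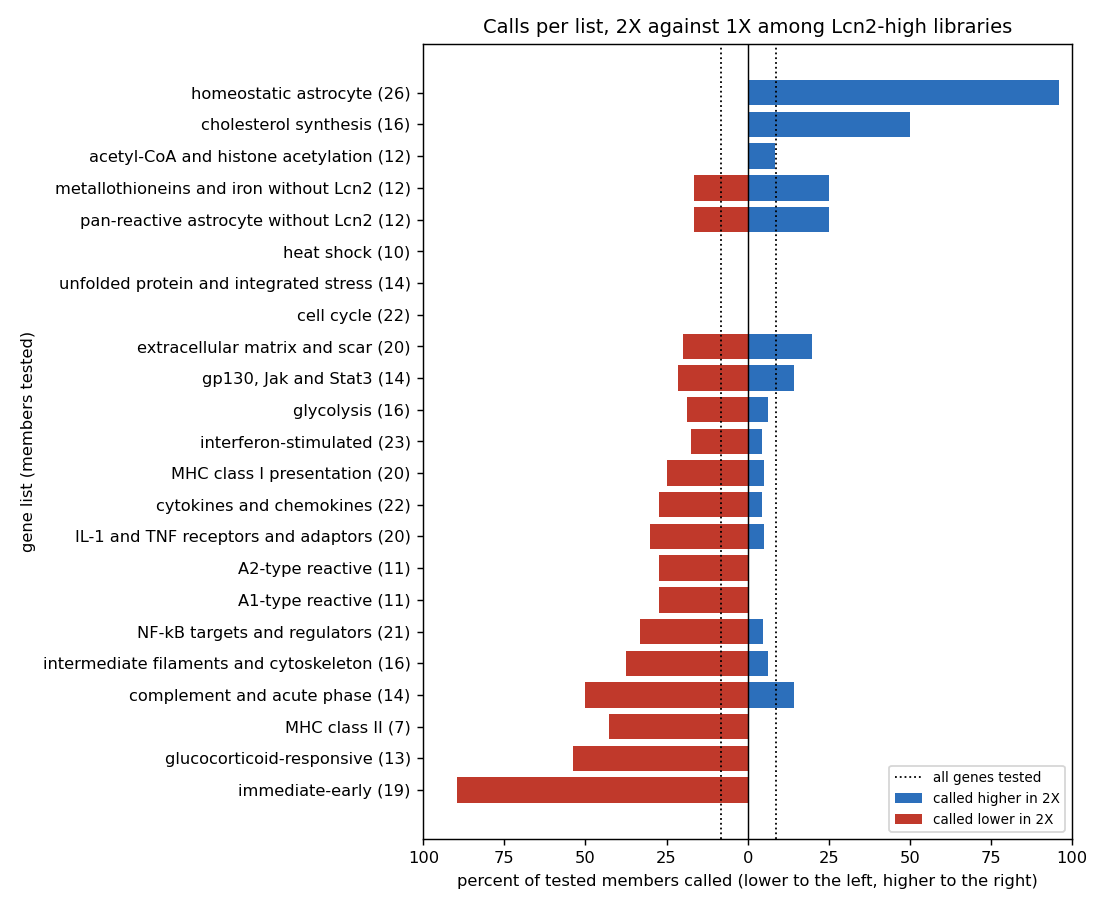
For each function list, bars give the percent of its tested members called higher (blue, right) or lower (red, left) in 2X than in 1X among Lcn2-high libraries, with the number tested in brackets and dotted lines at the shares of all genes tested, 8.72% and 8.13%. Homeostatic genes reach 25 of 26 to the right and immediate-early genes 17 of 19 to the left, and cell cycle, unfolded protein and heat shock lists have no bar.

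Antigen presentation fell in part. Of 20 class I pathway genes, 5 fell and 1 rose (against 8.13% and 8.72% of all genes). H2-D1, a class I heavy chain, measured 696, 697 and 539 CPM in 1X and 468, 403 and 447 CPM in 2X (log2 fold change -0.55 ± 0.12, edgeR adjusted p = 0.0146), and reads of its close relatives may be shared. Psmb10, a subunit of the immunoproteasome, rose from 28.3, 29.2 and 29.0 CPM in 1X to 44.1, 37.0 and 43.5 CPM in 2X (log2 fold change 0.52 ± 0.13, edgeR adjusted p = 0.0204), while another of its subunits, Psmb8, did not pass the threshold (log2 fold change -0.30 ± 0.20, edgeR adjusted p = 0.363). H2-K1 and B2m did not pass it either (-0.15 and -0.42, edgeR adjusted p = 0.323 and 0.0922). Of the 7 class II genes, made mainly by microglia and infiltrating myeloid cells, 3 fell. Cd74, the class II invariant chain, measured 148, 131 and 58.1 CPM in 1X and 47.1, 47.1 and 52.0 CPM in 2X (log2 fold change -1.20 ± 0.28, edgeR adjusted p = 0.0174), with the member labelled 1X cytokine nearest to 2X. H2-D1 lost the call without 1X PBS replicates 2 or 3 or 2X PBS replicates 2 or 3, Psmb10 without 1X PBS replicates 2 or 3 or 2X PBS replicates 1 or 3, and Cd74 without any 1 of the 5 members labelled PBS.

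Interferon-stimulated genes showed no common direction, with 1 of 23 higher and 4 lower (against 8.72% and 8.13% of all genes). Their median was -0.058. Ifit3, an antiviral effector, measured 39.3, 41.4 and 36.1 CPM in 1X and 78.6, 78.0 and 73.2 CPM in 2X (log2 fold change 0.98 ± 0.11, edgeR adjusted p = 0.000649). Irf1, a transcription factor of the interferon-γ response, measured 127, 135 and 143 CPM in 1X and 87.4, 98.8 and 113 CPM in 2X (log2 fold change -0.43 ± 0.11, edgeR adjusted p = 0.0271). These 2 genes separated the schedules in opposite directions. The other genes that fell were Rsad2 (-1.98, or -0.97 without 1X PBS replicate 3), Ifi27 (-0.52) and Bst2 (-0.55), with edgeR adjusted p = 0.029, 0.00663 and 0.0394. Irf1 lost the call without 1X PBS replicates 2 or 3 or 2X PBS replicates 1 or 2, Rsad2 without 2X PBS replicates 1, 2 or 3, and Bst2 without any 1 of the 5 members labelled PBS.

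In the gp130 pathway, which carries IL-6-family signals to Stat3, 2 of 14 rose and 3 fell (against 8.72% and 8.13% of all genes). The receptors Lifr and Cntfr rose by 0.55 and 1.04 on the log2 scale (edgeR adjusted p = 0.0115 and 0.00412). The feedback gene Socs3 measured 364, 358 and 287 CPM in 1X and 229.9, 250.3 and 249 CPM in 2X (log2 fold change -0.47 ± 0.11, edgeR adjusted p = 0.0204). Cish, another Socs-family gene, measured 52.2, 45.3 and 55.4 CPM in 1X and 23.5, 19.4 and 25.9 CPM in 2X (log2 fold change -1.17 ± 0.15, edgeR adjusted p = 0.00133), and the kinase Pim1 fell by 1.07 on the log2 scale (edgeR adjusted p = 0.042). Stat3 itself measured 316, 272 and 282 CPM in 1X and 287, 274 and 293 CPM in 2X, and the members of both schedules were intermixed (log2 fold change -0.025 ± 0.10, edgeR adjusted p = 0.896). Lifr lost the call without 1X PBS replicate 2, and Socs3 and Pim1 without any 1 of the 5 members labelled PBS.

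Of the 16 genes of the cytoskeleton list, 6 fell and Gfap was the 1 that rose (against 8.13% and 8.72% of all genes). Flna, filamin A, measured 1794, 1999 and 1870.4 CPM in 1X and 1271, 1083 and 1254 CPM in 2X (log2 fold change -0.65 ± 0.11, edgeR adjusted p = 0.00384). Tuba1c, a tubulin, fell by 0.84 on the log2 scale, and the filament proteins Nes and Synm by 0.48 and 0.50 (edgeR adjusted p = 0.00155, 0.0199 and 0.0244). Vim, the filament partner of Gfap, measured 1590.1, 1597 and 1355 CPM in 1X and 1130.1, 1088 and 1288 CPM in 2X and did not pass the threshold with edgeR (log2 fold change -0.37 ± 0.12, edgeR adjusted p = 0.0551), while DESeq2 called it lower (adjusted p = 0.0245). Nes lost the call without 1X PBS replicates 2 or 3 or 2X PBS replicates 1 or 2, and Synm without 1X PBS replicates 2 or 3 or 2X PBS replicates 2 or 3.

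Extracellular matrix genes divided evenly, 4 higher and 4 lower of 20 (against 8.72% and 8.13% of all genes). The brain proteoglycans rose: Bcan, brevican, measured 239.8, 306 and 546 CPM in 1X and 1009, 938 and 1030.4 CPM in 2X (log2 fold change 1.45 ± 0.25, edgeR adjusted p = 0.00403), and Ncan, neurocan, measured 114, 96.6 and 155 CPM in 1X and 288, 267 and 285 CPM in 2X (log2 fold change 1.20 ± 0.16, edgeR adjusted p = 0.0014). Cspg5, neuroglycan C, and Timp1 were the other 2 that rose (log2 fold change 1.10 for Cspg5, edgeR adjusted p = 0.0121). Fn1, fibronectin, which monocytes and fibroblasts also make, measured 496, 501 and 301 CPM in 1X and 183, 158 and 167 CPM in 2X (log2 fold change -1.35 ± 0.18, edgeR adjusted p = 0.00154). Lgals1, Col4a1 and Thbs1 fell by 0.54, 0.55 and 1.13 on the log2 scale (edgeR adjusted p = 0.0187, 0.0391 and 0.0188). Cspg5 lost the call without 2X PBS replicates 2 or 3, Lgals1 without any 1 of the 5 members labelled PBS, Col4a1 without 1X PBS replicate 3 or 2X PBS replicates 2 or 3, and Thbs1 without 1X PBS replicates 2 or 3 or 2X PBS replicates 2 or 3. Csf1, Clu, Bst2, Pim1, Col4a1 and Thbs1 lay outside the naming rule and were picked after their values were seen.

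Of the metal-binding genes 3 rose and 2 fell (against 8.72% and 8.13% of all genes). Mt1 and Mt3, metallothioneins that bind zinc and copper, rose by 0.59 and 0.45 on the log2 scale, and the transferrin receptor Tfrc by 0.43 (edgeR adjusted p = 0.00724, 0.0318 and 0.0265). The ferritin subunits Fth1 and Ftl1 fell by 0.50 and 0.51 on the log2 scale (edgeR adjusted p = 0.0181 and 0.0237). Fth1 measured 3861, 3734 and 3208 CPM in 1X and 2721, 2458 and 2448 CPM in 2X, so the 2X members lay nearer to the Lcn2-low range of 1411 to 2098 CPM. These were the calls among 12 tested genes of the list, Lcn2 left aside. Mt3 and Fth1 lost the call without 1X PBS replicates 2 or 3 or 2X PBS replicates 2 or 3, and Tfrc and Ftl1 without any 1 of the 5 members labelled PBS.

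With edgeR 0 genes were called in 3 lists: 22 cell cycle genes, 14 genes of the unfolded protein and integrated stress response, and 10 heat shock genes. Mki67, a marker of dividing cells, measured 32.1, 37.0 and 43.9 CPM in 1X and 24.8, 33.5 and 18.5 CPM in 2X (log2 fold change -0.53 ± 0.21, edgeR adjusted p = 0.119). At an unadjusted p under 0.05 there were 4 genes in the cell cycle list, 2 in the stress list and 2 in the heat shock list, and DESeq2 called 0 in each. Of the glycolysis genes, 1 of 16 rose and 3 fell (against 8.72% and 8.13% of all genes). Hk2, a hexokinase, rose by 0.80 on the log2 scale (edgeR adjusted p = 0.0463), while Pgk1 and Pkm, which each yield ATP in the pathway, fell by 0.39 (edgeR adjusted p = 0.04 and 0.037). Slc16a3, a lactate exporter of glycolytic cells, measured 99.7, 104 and 47.3 CPM in 1X and 36.1, 28.3 and 27.3 CPM in 2X (log2 fold change -1.47 ± 0.27, edgeR adjusted p = 0.00575). Hk2 lost the call without 1X PBS replicate 3 or 2X PBS replicates 2 or 3, Pgk1 without 1X PBS replicate 2, 1X cytokine replicate 1 or 2X PBS replicates 1, 2 or 3, and Pkm without 1X PBS replicate 2 or 2X PBS replicates 1, 2 or 3.

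Transcripts of several other cell types were also lower in 2X, while mural, microglial and neuronal markers moved in both directions. All 10 choroid plexus markers fell, 12 of 13 oligodendrocyte markers fell, 9 of 15 endothelial markers fell, 6 of 7 erythrocyte markers fell and 3 of 12 ependymal markers fell, and none of these lists had a gene that rose. For these and the next counts, the shares of all genes were 8.13% lower and 8.72% higher. Mural and fibroblast markers had 5 of 15 lower and 1 higher. Microglial markers had 1 of 15 higher and 1 lower, neuronal markers 1 of 6 higher and 1 lower, and oligodendrocyte precursor markers 1 of 4 lower. Of the T and NK cell markers 1 of 11 and of the B cell markers 1 of 6 was abundant enough to test, and 0 were called with edgeR or DESeq2. Cd3e, Gzma and Gzmb of the T and NK cell list were at 0 in all 3 2X members, and the neuronal Slc17a7 was at 0 in all 6 members. With 1 member left out, all 10 choroid plexus markers stayed called in each of the 6 fits. Oligodendrocyte calls dropped to 5 and 8 without 2X PBS replicates 2 and 3, and endothelial calls to 4 and 3 without 1X PBS replicate 3 and 2X PBS replicate 2. Without the member labelled 1X cytokine, 9 monocyte and 7 microglial markers were called lower, against 1 and 0 when any other member was left out. The share of all genes called lower was 11.5% without the cytokine member and 2.75% to 5.13% in the other fits. The plot of marker lists gives the level of each list in each library.

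Ttr, transthyretin, the main product of the choroid plexus that lies in the injected ventricles, measured 25121, 25606 and 27030.5 CPM in 1X and 13729, 12818 and 14894 CPM in 2X (log2 fold change -0.91 ± 0.13, edgeR adjusted p = 0.00176). The summed choroid plexus markers ran from 35525 to 40040 CPM in 1X, 18444 to 21449 CPM in 2X and 5310 to 30066 CPM in the Lcn2-low libraries. Summed oligodendrocyte markers ran from 5641 to 6781 CPM in 1X, 3121 to 4541 CPM in 2X and 4190 to 7051 CPM in the Lcn2-low libraries. Both sets of 2X members lay wholly below the 1X members, and for choroid plexus the 2X members sat inside the Lcn2-low range.

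Cldn5, the tight-junction protein of brain endothelium, measured 56.6, 81.0 and 46.8 CPM in 1X and 10.5, 6.46 and 18.8 CPM in 2X (log2 fold change -2.42 ± 0.33, edgeR adjusted p = 0.00172), and the summed endothelial markers ran from 319 to 425 CPM in 1X, 154 to 178 CPM in 2X and 139 to 205 CPM in the Lcn2-low libraries. Summed ependymal markers ran from 943 to 1148 CPM in 1X, 663 to 886 CPM in 2X and 555 to 1032 CPM in the Lcn2-low libraries. The 2X members lay below the 1X members in both lists. Summed mural and fibroblast markers ran from 8385 to 10561 CPM in 1X, 5897 to 6976 CPM in 2X and 4250 to 7407 CPM in the Lcn2-low libraries. Summed microglial markers ran from 693 to 1752 CPM in 1X, 906 to 1252 CPM in 2X and 498 to 1171 CPM in the Lcn2-low libraries. The schedules did not overlap in the mural sum, which Acta2 leads, and they did in the microglial sum. Over the mural list the median log2 fold change was 0.019, and 8 of its 15 genes had the higher mean in 2X.

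The largest falls of all were haemoglobin transcripts. Hbb-bs measured 5724, 24223 and 2661 CPM in 1X and 1248, 739 and 180.5 CPM in 2X (log2 fold change -3.91 ± 0.86, edgeR adjusted p = 0.0128). The summed erythrocyte markers ran from 7607 to 64473 CPM in 1X and from 509 to 3552 CPM in 2X, and from 949 to 13348 CPM in the Lcn2-low libraries. The 2X members were lower but spread widely in both schedules. Alas2, which starts haem synthesis in red cells, fell by 3.70 ± 0.78 on the log2 scale (edgeR adjusted p = 0.0104). Without 1X PBS replicate 3 the fold changes were -2.51 for Hbb-bs and -2.41 for Alas2. Hbb-bs and Alas2 lost the call without 2X PBS replicates 2 or 3. Without the library labelled 2X PBS replicate 2, edgeR called 0 of the 7 erythrocyte markers, although all 7 had an unadjusted p under 0.05, and DESeq2 on all members called 6. The haemoglobin genes are near-identical copies, so counts of one can include reads of another. No marker of the choroid plexus, oligodendrocyte, endothelial, mural, ependymal, microglial or erythrocyte lists was at 0 in all 6 members, and the part of these cells in the differences between schedules was not tested.

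**Figure D4:**
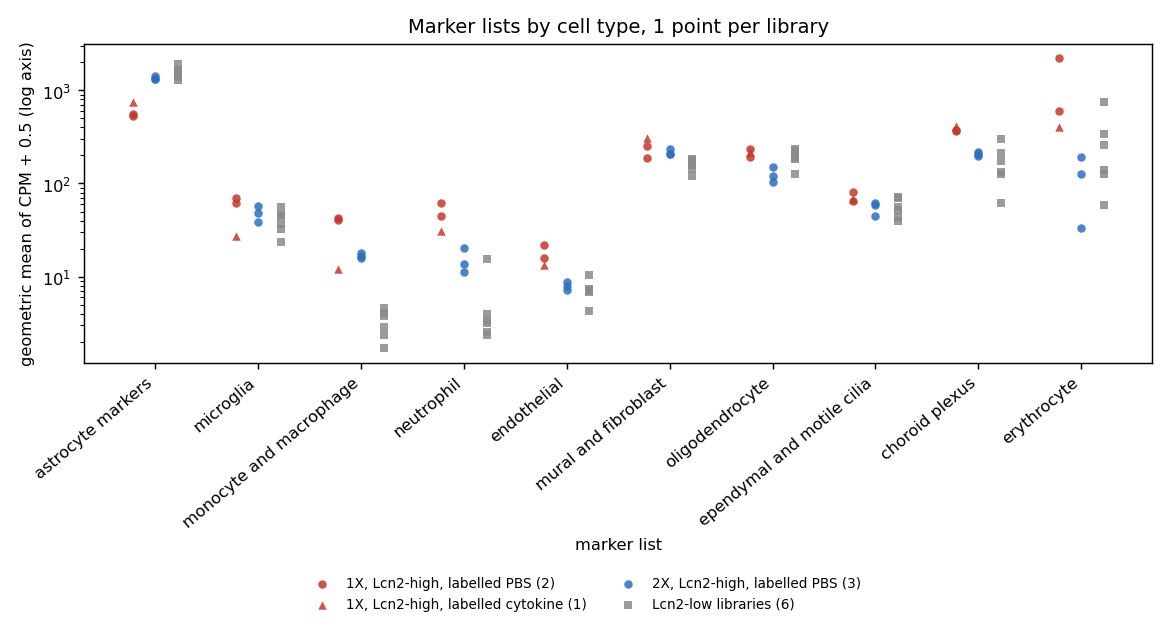
Geometric mean of CPM + 0.5 over each cell type's markers, on a log axis, with 1 point per library: red for Lcn2-high 1X (the triangle is the one labelled cytokine), blue for Lcn2-high 2X, grey for Lcn2-low. Astrocyte markers are lower in red than in blue and grey, choroid plexus, endothelial and erythrocyte markers are higher in red than in blue, and for monocytes and microglia the red triangle lies below the blue points.

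The 1X member labelled cytokine lay apart from the other 1X members in many of these genes. Without it, the comparison of labelled PBS members only, 2X against 1X, called 3466 genes in place of 2425. In that comparison 10 of 22 cytokines and chemokines, 6 of 7 class II genes, 7 of 20 class I pathway genes, 9 of 16 cytoskeletal and 8 of 20 matrix genes were called lower, against 11.5% of all genes. Without 2X PBS replicate 2 these counts were 3, 1, 0, 2 and 1, against 2.75% of all genes. Leaving out other members lowered the count, to 1478 and 1380 without the libraries labelled 1X PBS replicates 2 and 3, and to 1685, 1092 and 1166 without those labelled 2X PBS replicates 1, 2 and 3. The share of calls that were higher in 2X reached 61.8% without 1X PBS replicate 3 and 63.1% without 2X PBS replicate 2. Homeostatic genes called higher numbered from 22 to 26 of 26 over these 6 fits, and immediate-early genes called lower from 11 to 18 of 19. Over all genes, 4.55% to 12.1% were called higher and 2.75% to 11.5% lower. Of the genes named above as called, 56 kept the call in all 6 fits and 42 lost it in at least 1.

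Among the 6 Lcn2-low libraries, the same contrast of schedules gave few calls. Of 13261 genes tested, edgeR called 2 (0.0151%), both higher in 2X: Eml2, a microtubule-associated protein (1.49 ± 0.18, edgeR adjusted p = 0.0496), and Cdhr4, a cadherin-related protein (1.01 ± 0.12, edgeR adjusted p = 0.0496). Both lost the call when any 1 of the 6 libraries was left out. DESeq2 called 24 genes here, and 925 reached an unadjusted p under 0.05 in edgeR. The median log2 fold change was -0.086 for the homeostatic list and 0.32 for the immediate-early list, with 0 members called in either by edgeR or DESeq2, and 1 and 6 members at an unadjusted p under 0.05 in edgeR. The ependymal and motile cilia list had a median of 0.61, against -0.33 among Lcn2-high libraries. Of its 12 genes, edgeR called 0, DESeq2 called 4, and 9 had an unadjusted p under 0.05 in edgeR. In this set all 3 libraries titled 2X are labelled cytokine, and the 3 titled 1X are 2 labelled cytokine and 1 labelled PBS.

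The difference of the 2 schedule contrasts was then tested gene by gene over all 12 libraries. Of 14490 genes, 1209 (8.34%) were called, with the contrast more positive among Lcn2-high libraries for 822 (5.67%) and more negative for 387 (2.67%). With 1 library left out the count ran from 716 to 1686, and it was 718, 776, 716 and 719 without 1X PBS replicates 2 and 3, 2X PBS replicate 3 and 2X cytokine replicate 2. All calls among homeostatic genes, 23 of 26, were positive. On the log2 scale the contrasts differed for Slc6a11 by 2.12 ± 0.16, edgeR adjusted p = 3.95e-05, and for Slc1a2 by 1.67 ± 0.25, edgeR adjusted p = 0.00188. For Aqp4 the difference was 1.17 ± 0.23, edgeR adjusted p = 0.00626, and for Fgfr3 1.82 ± 0.24, edgeR adjusted p = 0.000971. Agt, outside the list, differed by 2.40 ± 0.20, edgeR adjusted p = 3.95e-05. Among immediate-early genes, 13 of 19 were called and all were negative, including Dusp1 (-1.34 ± 0.22, edgeR adjusted p = 0.00253) and Egr1 (-1.15 ± 0.20, edgeR adjusted p = 0.00346).

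Of the reactive genes, 3 of 12 were called, all positive: Gfap (1.30 ± 0.21, edgeR adjusted p = 0.00282), Aspg (1.97 ± 0.45, edgeR adjusted p = 0.0147) and Timp1 (3.43 ± 0.46, edgeR adjusted p = 0.000971). Over all genes, 5.67% were called positive and 2.67% negative. For Timp1 the larger part came from the Lcn2-low side, where the log2 fold change was -2.95 ± 0.41, edgeR adjusted p = 0.0539, from libraries spread over 5.98 to 142 CPM. DESeq2 called that Lcn2-low contrast (adjusted p = 0.0014). C4b (0.91 ± 0.20, edgeR adjusted p = 0.0116) was called positive and Hp (-2.47 ± 0.62, edgeR adjusted p = 0.0245) negative. Leaving out 1 of the 12 libraries ended the call for Aspg (without 1X PBS replicate 1 or 1X cytokine replicate 2) and Hp (without 1X cytokine replicates 2 or 3 or 2X cytokine replicates 1 or 3). Of 21 NF-κB genes, 6 were called negative and 1 positive, among them Nfkbiz (-1.98 ± 0.28, edgeR adjusted p = 0.00132), Nfkbia (-1.46 ± 0.31, edgeR adjusted p = 0.00986), and Vcam1 on the positive side (0.87 ± 0.23, edgeR adjusted p = 0.028), which lost the call in 9 of 12 such fits and kept it without 1X cytokine replicates 1 or 2 or 2X PBS replicate 2. Of 22 chemokines and cytokines, 0 were called with edgeR, and DESeq2 called 2, while 6 reached an unadjusted p under 0.05 in edgeR. Cxcl2 (-2.37 ± 0.81, edgeR adjusted p = 0.0878) and Il1b (-1.61 ± 0.74, edgeR adjusted p = 0.217) are examples, and their Lcn2-low levels were at most 9.72 CPM. Choroid plexus markers, all lower in 2X among members, gave 0 calls for the difference with edgeR, with 0 of 10 at an unadjusted p under 0.05 and 0 called by DESeq2. Other cell lists gave negative calls: 7 of 12 ependymal, 6 of 15 endothelial and 5 of 7 erythrocyte markers (against 2.67% of all genes). Neutrophil markers had 3 of 10, oligodendrocyte markers 3 of 13 and mural markers 3 of 15, with 1 mural marker positive. Without 2X PBS replicate 2, 7 ependymal, 2 endothelial, 1 neutrophil and 0 erythrocyte, oligodendrocyte or mural markers were called. In that fit 815 of 14695 genes were called.

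**Figure D5:**
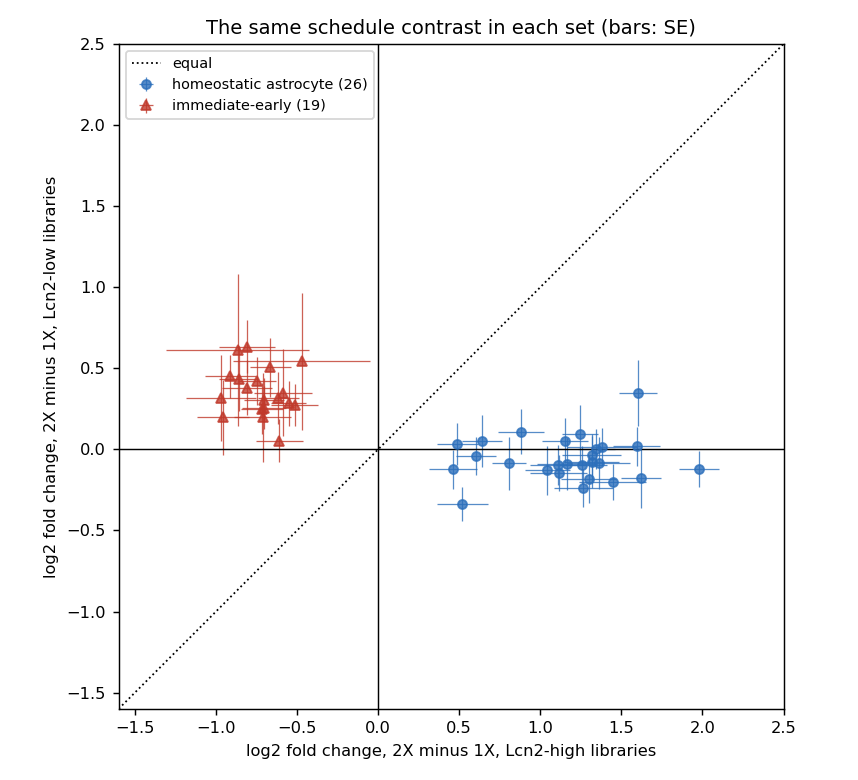
Log2 fold change of 2X over 1X among Lcn2-high libraries (horizontal axis) and among Lcn2-low libraries (vertical axis), with bars of 1 standard error, for 26 homeostatic genes (blue circles) and 19 immediate-early genes (red triangles). The 2 axes share no library, the dotted line marks equal contrasts, and the blue points lie to the right of it near the horizontal zero line with median 1.25 across and -0.086 up.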

How the data were processed

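RNA of sorted astrocytes was profiled by SMART-Seq2 in 12 libraries. Per the labels' protocols, the authors quantified reads with kallisto 0.46.1 on a GRCm38 transcriptome, and described TMM-scaled CPM and DESeq2 with apeGLM shrinkage for their own analysis. The deposited files hold estimated counts and TPM per transcript, plus transcript lengths and effective lengths, per the file headers. Estimated counts were summed per gene identifier and rounded to whole numbers, and TPM was summed per identifier for 1 alternative. Only the Lcn2 selection summed counts per gene symbol. Where a symbol had several identifiers, values and lists used the one with the highest count. No deposited file gives a per-sample column that was left unused (0 columns).

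Members were chosen by unscaled Lcn2 CPM of at least 100, a value read from these libraries, and the gene lists and members were chosen with earlier results of these data known. Genes passing filterByExpr were tested with the quasi-likelihood test of edgeR 4.0.16 (R 4.3.3), TMM scaling and Benjamini-Hochberg adjustment at 0.05, in 3 comparisons: 2X against 1X among the 6 Lcn2-high libraries, the same among the 6 Lcn2-low libraries, and the difference of both over all 12. Alternatives used DESeq2 1.42.0, limma 3.58.1, other scaling, filters and libraries. The Lcn2-high against Lcn2-low contrast was not tested. Lcn2 was in the schedule fits and is among the calls of the first comparison, but its test result is not used. On simulated counts the first comparison recovered 76 of 100 genes changed 2-fold and 99 of 100 changed 4-fold. It made 15 false calls, with 14132 genes tested, the changed ones included. The Lcn2-low comparison recovered 61 and 91 of 100, with 10 false calls and 12967 genes tested. The difference of contrasts recovered 32 and 78 of 100, with 5 false calls and 14201 genes tested. The changed genes were drawn from those with mean CPM of at least 5, so recovery of lower genes was not measured. The shallowest library had 1878418 counts, where 3 counts are 1.60 CPM, and intervals of counting cover counting error only.

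Named genes were, per comparison, the 12 largest changes in each direction with mean CPM of at least 5, up to 4 members of each list with the smallest p, a fixed panel, and up to 2 members by level and 2 by p of every list for other cells. Genes near-identical to others (haemoglobins, C4b, Saa and H2 genes) share reads. Some genes are not reported here. Positions were matched for 98.1% of all genes quantified, before any filter. Deviations of same-numbered libraries from the mean of their schedule correlated at -0.032, -0.018 and -0.033. With 3 libraries per schedule, these values cannot show whether the replicate number pairs libraries.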

Additional observations from a re-analysis of the deposited data

Results flagged for a closer look

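The contrast of 2 injections with 1 differed between Lcn2-high and Lcn2-low libraries for 1209 genes by the test of that difference. The differences below are log2 values of the Lcn2-high contrast minus the Lcn2-low contrast, each with edgeR's adjusted p given in the report.

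Among astrocyte transport, channel and signalling genes the difference was 2.12 for the GABA transporter Slc6a11, 1.67 for the glutamate transporter Slc1a2, 1.17 for the water channel Aqp4, 1.82 for the receptor Fgfr3 and 2.40 for angiotensinogen, Agt. Among genes of the reactive state it was 1.30 for Gfap, 1.97 for Aspg, 3.43 for Timp1, 0.91 for C4b and 0.87 for Vcam1. Negative differences were -1.46 for Nfkbia, -1.98 for Nfkbiz, -1.34 for Dusp1, -1.15 for Egr1 and -2.47 for Hp. For Timp1 the Lcn2-low libraries titled 1X had a higher mean than those titled 2X, and the Lcn2-low contrast itself did not pass the threshold with edgeR (adjusted p = 0.0539) and did with DESeq2 (adjusted p = 0.0014).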

How the results depend on the processing

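With 6 libraries in a comparison and totals as low as 1878418 counts, a gene that missed the threshold is not shown to be alike in both schedules, and genes near 1.60 CPM were at the detection limit. The schedule count among Lcn2-high libraries was 2425, and became 1525 with an effective-length offset, 413 on log2(TPM + 1), 440 on log2(TPM + 0.1) and 0 when all 3 libraries labelled 2X PBS were set against all 3 labelled 1X PBS. In that label comparison 0 members of the homeostatic, immediate-early, NF-κB, complement and cholesterol lists were called, and Hk2 had a log2 fold change of -0.10. Among Lcn2-low libraries the count of 2 became 24 with DESeq2, 295 with no filter on low counts, 4 with a mean CPM of at least 10, 6 with protein-coding genes only, and 4 with all 12 libraries fitted together. The difference of contrasts gave 1829 calls with no filter. The cause of these shifts was not tested.

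With 1 library left out, the Lcn2-high count ran from 1092 to 3466, the Lcn2-low count from 0 to 2 and the count for the difference from 716 to 1686. Calls ran from 22 to 26 for homeostatic genes, 11 to 18 for immediate-early genes, 3 to 13 for NF-κB genes, 3 to 9 for complement genes and 5 to 11 for cholesterol genes, and the homeostatic median from 1.13 to 1.44. Over all genes in the Lcn2-high fits, 4.55% to 12.1% were called higher and 2.75% to 11.5% lower. The medians of these 5 lists kept their sign in every fit that left out 1 library.

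With the replicate block, the Lcn2-high count was 2009, the Lcn2-low count 35, the count for the difference 1246 and the complement genes called lower 4 (against 6.76% of all genes). Whether the replicate numbers pair the libraries is not known, so these values say nothing about pairing. The block, the label comparison and RLE scaling for list counts and medians, and the fit of all 12 libraries for the Lcn2-low contrast, were chosen after seeing the data. Of 112 named genes tested among Lcn2-high libraries, 105 kept their side of the threshold and direction with DESeq2, 112 with RLE scaling and 44 on log2(TPM + 1).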
